A study of Mus musculus with 12 samples.

Results

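The regions of open chromatin that the study's authors assigned to cytokine and chemokine receptor genes are described here. They were chosen by gene symbol alone. A row of the authors' deposited comparison tables was kept when its annotated gene was a chemokine receptor (CC, CXC, CX3C or atypical), an interleukin receptor, an interferon receptor, a member of the TNF receptor superfamily, a TGF-beta receptor or a chain of the GM-CSF receptor. The rule kept 149 of the 30120 rows of 4 tables. These rows lie in 120 of the 73156 regions that result from joining the peaks of all libraries, and they name 60 genes. RefSeq lists 94 protein-coding genes with such symbols. The rule follows the spelling, so Il1rn, which encodes a secreted antagonist of interleukin-1 and no receptor, is among the 60.

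Chromatin was mapped by ATAC-seq, in which a transposase inserts adapters into accessible DNA. The cells were granulocyte-monocyte progenitors from the bone marrow of C57BL6 mice. All groups carried ER-HOXA9, in which HOXA9, a transcription factor of leukaemia, is joined to the estrogen receptor, and all grew with stem cell factor and beta-estradiol. The 12 libraries form 6 groups of 2. Day0 was untreated and was sampled at day 0. Vehicle received DMSO and was sampled on day 2, as were the drug groups. LSD1i received 200 nM GSK-LSD1, which blocks LSD1, an enzyme that removes methyl groups from histones. The group 6MP received 5 uM mercaptopurine, a purine analogue, and the group CER received 5 uM cerulenin, an inhibitor of fatty acid synthase. Combo received all 3 drugs at these doses. The labels number the libraries of a group but do not say whether they came from separate cultures, so p-values measure the spread between these libraries, which may be technical. Both Day0 libraries carry another name suffix than the Vehicle libraries, so time and suffix cannot be told apart.

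Cytokine receptors pass signals from secreted proteins to the nucleus. Type I and II cytokine receptors, which include those for interleukin-3, interleukin-6, interleukin-10, the interferons and GM-CSF, work through JAK kinases and STAT factors. Receptors of the interleukin-1 family and of the TNF family work largely through NF-kB, TGF-beta receptors through SMAD proteins, and chemokine receptors through G proteins. In granulocyte-monocyte progenitors the GM-CSF and interleukin-3 receptors drive growth, and chemokine receptors such as CXCR4 and CCR2 direct where the cells go.

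A fold and a height are used. The authors' log2 fold compares group means of normalised reads and is listed only for regions at an FDR of 0.05 or less. Peak height was read from the peak lists of each library, as the number of fragments piled up at the summit over the library's depth, and is printed as a percent of the median height that library had at the 33368 regions with a peak in each of the 12. Depth was 2.44 to 4.55 fragments per position, and a called summit held at least 10 fragments. Median heights were 28.3 to 42.7 times background in 10 libraries. They were lower in 6MP replicate 1, at 16.9 times, and in CER replicate 2, at 23.0 times. All 10 genes that mark granulocyte-monocyte progenitors, Mpo, Elane and Cebpa among them, had a called region in or near the gene in all 12 libraries. Of the defining genes of other lineages, Hbb-bs, Hba-a1, Cd8a, Ncr1, Fcer1a and Prg2 had none in any library, whereas Pax5, Ebf1 and Cpa3 had one in all 12. Called in all 12 were 5 of 8 T and NK cell genes, 5 of 6 B cell, 3 of 6 erythroid, 3 of 4 megakaryocyte, 3 of 6 mast cell, basophil and eosinophil and 5 of 7 dendritic cell genes. Among them Cpa3, a mast cell protease gene, had a median height of 190% in the 4 libraries with the LSD1 inhibitor and 123.1% in the other 8. Klrb1c, an NK cell gene, had 65.2% and 36.4%. Other genes of their lists, Mcpt8, Gata2, Epx, Cd3g, Zap70 and Lck, were lower with the inhibitor. Gata2 was 208% against 249% and Lck 97.3% against 149%, whereas Cd3e and Cd3d were higher. Of the dendritic cell genes, Cd83 was called in the 4 libraries with the inhibitor, at a median of 115.78%, and in none of the other 8. Flt3 (590.8% against 526.7%) and Clec9a (53.3% against 42.97%) were higher with the inhibitor. Zbtb46 (131.7% against 153.5%), Xcr1 (333.4% against 381.3%) and Siglech (16.15% against 20.27%) were lower, and Ccr7 was nearly the same. The part of cells of other lineages in the results below was not tested. Each region carries the gene that the authors' annotation gives it by the nearest start, which need not be the gene it acts on.

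Promoter sequence was available for 77 of the 94 genes. The promoter windows of 23 receptor genes lie wholly or partly inside a listed row of theirs. The Ackr3 window, for example, begins before its row. Windows of 4 genes are printed because their rows moved in opposite directions in the authors' deposited LSD1i table. Ccr1 and Ackr3 are the genes with an opened row over such a window. Il1r1 and Ifnar1 had closed rows, and Il1r1 is shown since the strongest opened interleukin receptor row lies in its second intron. Each window runs from 250 bases before to 50 bases after the RefSeq start, 5′ to 3′ on the gene's strand (GRCm38.p6). Capitals mark matches, on either strand, to the 7 motifs searched. Ccr1 is chr9:123968643-123968942 (minus strand), Ackr3 is chr1:90203730-90204029 (plus), Il1r1 is chr1:40224830-40225129 (plus) and Ifnar1 is chr16:91484965-91485264 (plus).
Ccr1: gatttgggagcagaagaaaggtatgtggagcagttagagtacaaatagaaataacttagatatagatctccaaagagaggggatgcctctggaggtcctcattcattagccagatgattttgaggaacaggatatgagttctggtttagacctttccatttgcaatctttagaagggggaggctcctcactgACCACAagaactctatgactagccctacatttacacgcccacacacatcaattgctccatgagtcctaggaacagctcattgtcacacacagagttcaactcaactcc
Ackr3: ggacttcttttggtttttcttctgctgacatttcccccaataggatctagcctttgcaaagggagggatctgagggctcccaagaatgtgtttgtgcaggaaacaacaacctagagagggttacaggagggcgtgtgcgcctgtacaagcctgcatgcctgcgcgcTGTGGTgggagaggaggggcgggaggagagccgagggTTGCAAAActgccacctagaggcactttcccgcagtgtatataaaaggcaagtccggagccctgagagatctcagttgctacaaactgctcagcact
Il1r1: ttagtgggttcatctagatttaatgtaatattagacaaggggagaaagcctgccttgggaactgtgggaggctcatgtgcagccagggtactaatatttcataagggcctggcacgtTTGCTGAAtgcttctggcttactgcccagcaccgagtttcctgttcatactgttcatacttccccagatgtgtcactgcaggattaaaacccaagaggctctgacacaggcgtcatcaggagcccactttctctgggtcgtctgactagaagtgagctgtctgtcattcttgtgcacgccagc
Ifnar1: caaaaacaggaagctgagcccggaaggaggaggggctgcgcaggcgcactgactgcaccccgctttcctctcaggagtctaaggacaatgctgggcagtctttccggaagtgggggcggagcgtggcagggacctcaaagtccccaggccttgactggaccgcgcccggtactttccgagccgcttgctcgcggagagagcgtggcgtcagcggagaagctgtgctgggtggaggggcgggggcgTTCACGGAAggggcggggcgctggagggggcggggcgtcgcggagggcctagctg
The capitals are TGTGGT or its reverse complement (RUNX) in Ccr1 and Ackr3, TTGCNNAA (C/EBP) in Ackr3 and Il1r1, and TTCNNNGAA (STAT) in Ifnar1. The RUNX letters were in 2 of 2 windows at opened rows and in 3 of 23 at closed rows. They were in 24.2% of the 91 receptor windows and in 16.8% of all 32851 RefSeq windows of the same length. The C/EBP letters were in 1 of 2 opened and 1 of 23 closed windows, beside 10.8% of all windows. The STAT letters were in 0 of 2 opened and 3 of 23 closed windows, beside 8.3% of all. Neither GAGGAAGT (PU.1) nor AAATCAC (GFI1) was in any of these 25 windows, beside 3.2% of all windows for each. TGANTCA (AP-1) was in 2 closed windows and GAAA repeated after 2 further bases (IRF) in 3, beside 7.81% and 3.44% of all windows. A match is a description of the letters in the window.

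The authors' deposited table for LSD1i against Vehicle lists 94 receptor rows, 30 opened (positive fold) and 64 closed. Opened rows are thus 31.9% of the receptor rows and 16.6% of all 21247 rows. Their median log2 fold was 0.745, beside 0.83 for all opened rows of the authors' deposited table. For the closed receptor rows the median was -0.455, beside -0.48. In the authors' deposited Combo table the split was the other way, with 46 opened and 6 closed receptor rows, so that 88.5% were opened beside 85.6% of all 7955 rows. Receptor rows opened in Combo had a median log2 fold of 0.9 in the authors' deposited table, beside 0.98 for all opened rows. The authors' deposited Vehicle against Day0 table holds 3 receptor rows, all opened, among 746, and their CER table none among 172.

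**Figure D1:**
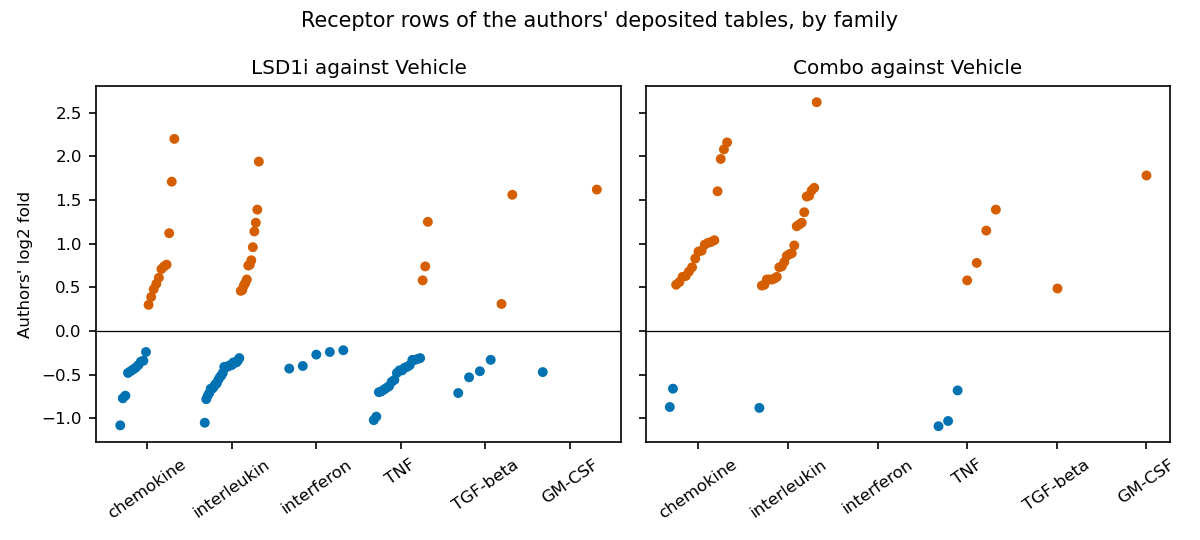
Log2 fold (vertical axis) of every receptor row in the authors' deposited tables for LSD1i (left) and Combo (right) against Vehicle, by receptor family, with opened rows in orange and closed rows in blue. The highest points are a Cxcr4 row at 2.20 in LSD1i and an Il1r1 row at 2.62 in Combo, and the interferon receptor rows appear in the LSD1i panel alone, all closed.

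By family, the authors' deposited LSD1i table opens 13 and closes 24 interleukin receptor rows, opens 11 and closes 11 chemokine receptor rows, and opens 3 and closes 19 TNF receptor rows. All 5 interferon receptor rows are closed there, with a median of -0.27. The authors' deposited Combo table opens 23 interleukin receptor rows and closes 1, opens 17 chemokine receptor rows and closes 2, and opens 4 TNF receptor rows and closes 3. It lists no interferon receptor row. The closed rows of LSD1i lay mostly at promoters, 37 of 64 (57.8%, beside 62.7% of all closed rows), and the opened ones mostly elsewhere, with 8 of 30 at promoters (26.7%, beside 21.3%). The tables share their Vehicle libraries. Values from both are given side by side below.

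Peak heights allowed the same libraries to be read on a scale fixed to the middle of each library. The limma test was run over all regions with a called peak in every library compared, with Benjamini-Hochberg adjustment over all of them, and a region was called at an adjusted p of 0.05 or less. Of the 97 receptor regions tested in LSD1i minus Vehicle, 11 were called opened and 2 closed. The background was 4.00% opened and 2.05% closed of 41324 regions. In Combo minus Vehicle, 15 of 96 were called opened and 4 closed, over a background of 4.96% and 3.11%. Membership was fixed by listing in the same comparisons, so these shares are not read against the background. On this scale the median difference of the 61 tested regions closed in the LSD1i table was -0.22, beside -0.04 for all regions tested, and only 2 of the 61 were called. Scaling by depth alone, with no centring, moved the median of all regions to -0.19 in LSD1i minus Vehicle and to 0.13 in Combo minus Vehicle, and the receptor calls became 1 opened and 0 closed, and 6 opened and 0 closed. With depth scaling 0.409% of all regions were called opened and 0.0750% closed in LSD1i minus Vehicle, and 2.81% and 0.0820% in Combo minus Vehicle. The 13 receptor calls of LSD1i minus Vehicle became fewer without Vehicle replicate 1 and without either LSD1i library, as did the calls over all regions. The 19 of Combo minus Vehicle became fewer without either Combo library, again as over all regions. Closing at receptor promoters is therefore given as relative to the library's middle.

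**Figure D2:**
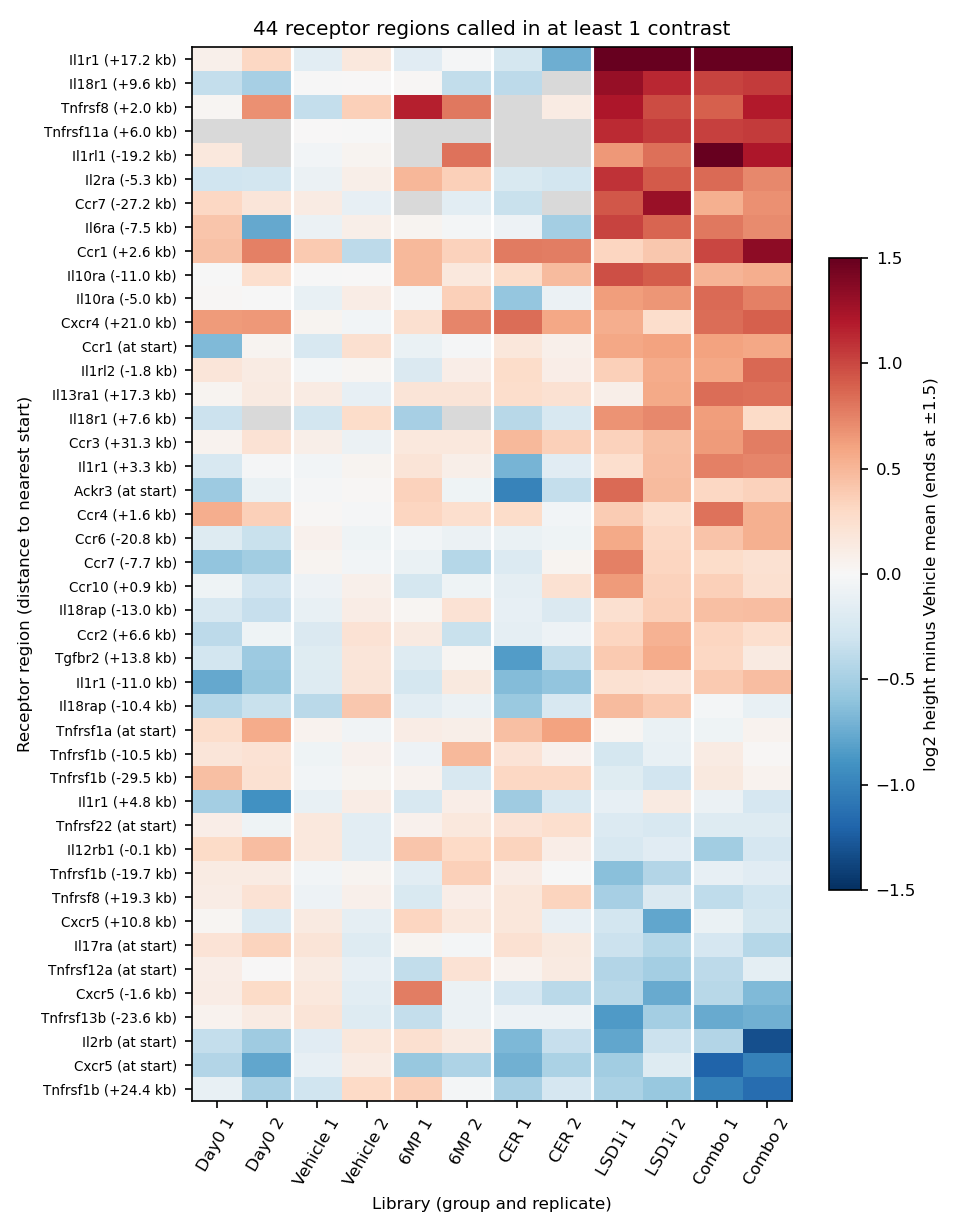
Log2 peak height minus the Vehicle mean (colour, ending at 1.5 in either direction) in each of the 12 libraries for the 44 receptor regions of 30 genes called in at least 1 contrast; grey cells had no called peak. Rows are named by gene and distance to the nearest annotated start. The LSD1i and Combo columns are red in the upper rows, led by the Il1r1 region in the second intron, and blue in the lowest rows, Tnfrsf1b, Cxcr5 and Il2rb.

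Among the receptor regions tested by limma, the one with the largest difference in LSD1i minus Vehicle and in Combo minus Vehicle lies in intron 2 of Il1r1, the signalling receptor for interleukin-1 (chromosome 1, 40283840 to 40284984, mm10). Its height was 21.8% and 27.1% of the library median in Vehicle and 25.6% and 30.1% in Day0. It was 21.6% and 24% in 6MP and 20.3% and 14.6% in CER. With the LSD1 inhibitor it was 111% and 97.1% in LSD1i and 119% and 132% in Combo. All 4 libraries with the inhibitor thus stood far above the 8 without, from at most 38 fragments at the summit to at least 129. The difference was 2.09 ± 0.24 (log2, SE, n = 2 per group) in LSD1i minus Vehicle (limma adjusted p = 1.18e-06) and 2.37 ± 0.24 in Combo minus Vehicle (limma adjusted p = 9.23e-08). The authors' deposited tables give folds of 1.94 and 2.62 for it. The call held under every alternative run, from 1.94 to 2.25 in LSD1i minus Vehicle.

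Il1r1 had 7 listed regions, and they did not move together. Its promoter region, whose window is printed above, was 104% and 116% in LSD1i against 122% and 146% in Vehicle, a difference of -0.28 ± 0.14 that did not pass (limma adjusted p = 0.281), although the authors' deposited LSD1i table closes it by -0.41. Another intronic region, 3.3 kb from an annotated start, was 178% and 175% in Combo against 102% and 108% in Vehicle and rose by 0.75 ± 0.16 (limma adjusted p = 0.00253). A further one had a called peak in all 4 libraries with the inhibitor, at 13.9% to 19.4%, and in none of the other 8. The rows listed in Vehicle against Day0 are at Il1r1 too: 11 kb before the gene, with 41.9% and 47.9% in Day0 and 62.4% and 81.4% in Vehicle, and 4.8 kb inside it, with 105% and 79.5% in Day0 and 138% and 161% in Vehicle. The authors' deposited table gives 0.80 and 0.82 for them. In limma neither passed (0.67 ± 0.19, adjusted p = 0.171, and 0.71 ± 0.16, adjusted p = 0.0907). The other row of that table was 10.4 kb before Il18rap, at 62.8% and 67.1% in Day0 and 63.9% and 112% in Vehicle, so that only 1 Vehicle library stood above Day0.

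Il1r1 is the first of 5 receptor genes in a row on chromosome 1. Il1rl2 encodes the interleukin-36 receptor, Il1rl1 the interleukin-33 receptor ST2, and Il18r1 and Il18rap the chains of the interleukin-18 receptor. Over 354.2 kb, from 20 kb before Il1r1 to 5 kb after Il18rap, the libraries held 35 joined regions, 15 of them with receptor rows. In LSD1i minus Vehicle 3 of the 23 tested regions of this stretch were called opened and 0 closed. In Combo minus Vehicle 6 of 23 were called opened and 0 closed. Over all regions 4.00% and 4.96% were opened in these contrasts. Every called region of the stretch holds a receptor row listed from the same libraries, so the counts are a second reading of that listing. An intronic Il18r1 region (40475573 to 40476373) was 34.6% and 35% in Vehicle, 86.2% and 75.9% in LSD1i and 70% and 72% in Combo. It was at most 35.1% in the other libraries where it was called, and CER replicate 2 had no peak there. It rose by 1.22 ± 0.23 in LSD1i (limma adjusted p = 0.00115) and by 1.03 ± 0.23 in Combo (0.00418), and the first call was lost without LSD1i replicate 1 and the second without Combo replicate 2. A region 19.2 kb before Il1rl1 was 12.8% and 13.6% in Vehicle and 37.5% and 30.5% in Combo, a rise of 1.36 ± 0.29 (limma adjusted p = 0.003) that was lost without Combo replicate 1. At the Il1rl1 promoter a peak was called in all 4 libraries with the inhibitor, at 11.2% to 20%. It was also called in 2 of the other 8, at 17.1% in Day0 replicate 1 and 9.77% in Vehicle replicate 1, so the heights overlapped. The peak in LSD1i replicate 1 held 13 fragments, the smallest pileup called in that library. A region 13.0 kb before Il18rap was called opened in Combo (0.45 ± 0.14, limma adjusted p = 0.0373), as was one 1.8 kb before Il1rl2 (0.72 ± 0.22, limma adjusted p = 0.0425). The Il18rap call was lost without Vehicle replicate 1 or either Combo library, and the Il1rl2 call when any 1 of its 4 libraries was left out.

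**Figure D3:**
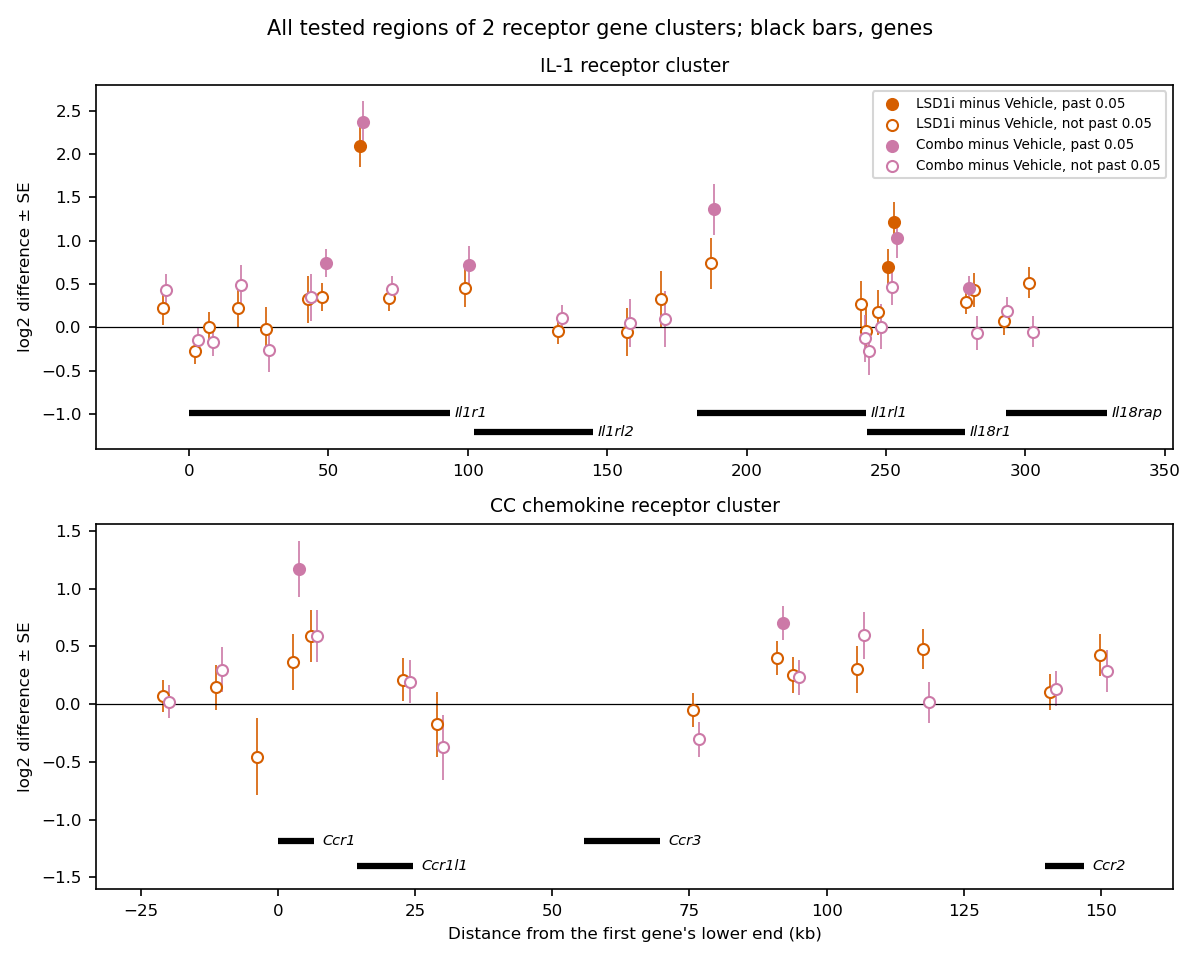
Log2 difference in peak height with its SE (vertical axis) at every tested region of the interleukin-1 receptor cluster (top) and of the CC chemokine receptor cluster (bottom), against distance in kb from the lower end of the first gene, for LSD1i (orange) and Combo (pink) minus Vehicle; filled points passed an adjusted p of 0.05 and black bars are the genes. The Il1r1 region stands at 2.09 and 2.37, and no filled point lies below 0 in either cluster.

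Among the other interleukin receptors, Il2ra encodes the alpha chain that gives the interleukin-2 receptor high affinity. The region 5.3 kb before it (chromosome 2, 11636085 to 11637583) was 42.1% and 47.9% in Vehicle, 94.8% and 84.7% in LSD1i and 80.6% and 73.8% in Combo. Day0 and CER stood at 36.4% to 38.5% and 6MP at 63.5% and 57.7%, so the libraries with the inhibitor were the highest 4 of 12. It rose by 0.997 ± 0.199 in LSD1i (limma adjusted p = 0.00182) and by 0.78 ± 0.20 in Combo (0.0112). The LSD1i call was lost without LSD1i replicate 1, and the Combo call without Vehicle replicate 1 or either Combo library. A second Il2ra region, 14.8 kb into the gene, went the other way and is closed by -1.05 in the authors' deposited LSD1i table. It had peaks of 50.4% and 45% in Vehicle, none in either LSD1i library and 32.5% and 32.3% in Combo, and too few libraries had a peak there for a test in LSD1i minus Vehicle. Il6ra, the ligand-binding chain for interleukin-6, had a region 7.5 kb upstream at 28.6% and 32.1% in Vehicle, 61.2% and 55.5% in LSD1i and 52.5% and 49.4% in Combo. It rose by 0.94 ± 0.29 in LSD1i (limma adjusted p = 0.0448). In Combo the difference of 0.75 ± 0.29 did not pass (limma adjusted p = 0.112). The LSD1i call was lost when any of its 4 libraries was left out. The Il6ra promoter region went the other way and is closed by -0.41 in the authors' deposited LSD1i table.

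Il10ra, the ligand-binding chain for interleukin-10, had 4 listed regions and none closed. The one 5.0 kb upstream (chromosome 9, 45274131 to 45275343) was 133% and 156% in Vehicle, 222% and 228% in LSD1i and 261% and 245% in Combo. Day0, 6MP and CER ranged from 96.5% to 185%, below all 4 libraries with the inhibitor. It rose by 0.64 ± 0.16 in LSD1i (limma adjusted p = 0.0104) and by 0.81 ± 0.16 in Combo (0.000874), and the LSD1i call was lost without Vehicle replicate 1 or either LSD1i library. At the promoter a peak was called in all 4 libraries with the inhibitor, at 24.4% to 40.1%, and in 3 of the other 8, at 14.4% to 18.8%. Il13ra1, a chain of the interleukin-13 and interleukin-4 receptors, had an intronic region at 45.1% and 37.9% in Vehicle, 44.0% and 61.3% in LSD1i and 73.8% and 73.2% in Combo. It rose in Combo by 0.83 ± 0.21 (limma adjusted p = 0.0125), a call lost without Vehicle replicate 2 or either Combo library, whereas in LSD1i the difference was 0.33 ± 0.21 (0.405). Combo minus LSD1i was 0.50 ± 0.21 there and did not pass (0.373).

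The GM-CSF and interleukin-3 receptors share the common beta chain, which Csf2rb encodes. Its near copy Csf2rb2 encodes a beta chain for interleukin-3. An intron 1 region of Csf2rb2 had summit peaks at 28.4% and 29.2% in LSD1i and 30.6% and 28.7% in Combo. Only 3 of the other 8 libraries had a called peak there, at 12.1% to 21.6%, so no difference was tested, and reads of such close copies may have been split between them. The authors' deposited tables give folds of 1.62 and 1.79. The Csf2rb promoter was 147% and 135% in Vehicle, 121% and 114% in LSD1i and 119% and 124% in Combo, a difference of -0.27 ± 0.15 in LSD1i that did not pass (limma adjusted p = 0.304). Il3ra, the interleukin-3 alpha chain, had a promoter peak called in both LSD1i libraries, at 87.9% and 77.4%. None of the other 10 had one, the Combo libraries included. The authors' deposited LSD1i table opens this promoter by only 0.76, with log2 levels of 8.55 in LSD1i and 7.79 in Vehicle. Reads were thus present in Vehicle without a called peak.

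Closing was called at few interleukin receptor regions. The promoter of Il2rb, the signalling beta chain for interleukin-2 and interleukin-15, was 40.6% and 51.4% in Vehicle and 33.8% and 18.3% in Combo, a fall of -0.88 ± 0.28 (limma adjusted p = 0.0433). Leaving out Combo replicate 2, or either Vehicle library, ended that call. Il4ra and Il17ra encode receptor chains for interleukin-4 and interleukin-17. A region 2899 bases from the Il4ra start and the Il17ra promoter region were listed as closed in LSD1i in the authors' deposited table, by -0.66 and -0.60. In limma the differences were -0.30 ± 0.13 (adjusted p = 0.195) and -0.37 ± 0.14 (0.125), and neither passed. The Il4ra row over the start itself is closed by -0.53 in the authors' deposited LSD1i table.

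Of the chemokine receptor regions tested by limma, 2 of 24 were called opened and 0 closed in LSD1i minus Vehicle. In Combo minus Vehicle 4 of 23 were called opened and 1 closed. The shares over all regions were 4.00% and 2.05%, and 4.96% and 3.11%. These regions too were chosen by listing in the same comparisons, so the counts are not read against those shares. Ccr1, Ccr3 and Ccr2, receptors of inflammatory CC chemokines on monocytes and other myeloid cells, lie together on chromosome 9 with Ccr1l1. Over 172 kb around them 19 joined regions were found, 7 with receptor rows. In LSD1i minus Vehicle 0 of the 14 tested regions of this stretch were called opened and 0 closed by limma. In Combo minus Vehicle 2 of 13 were called opened and 0 closed, and both hold listed receptor rows. A region 2.6 kb into Ccr1 was 40.6% and 23.6% in Vehicle, 38.8% and 40.9% in LSD1i and 61.9% and 78.7% in Combo. It rose in Combo by 1.17 ± 0.24 (limma adjusted p = 0.00178), and the call was lost without Vehicle replicate 2 and without Combo replicate 2. Vehicle was low there. Libraries without the inhibitor reached 53.1%, above both LSD1i libraries. CER minus Vehicle was 0.78 ± 0.24 and did not pass (limma adjusted p = 0.144). Combo minus the mean of 6MP and CER was 0.58 ± 0.21 and did not pass either (0.0699). The Ccr1 promoter was 40.6% and 56.4% in Vehicle, 71.6% and 73.0% in LSD1i and 72.5% and 71.3% in Combo, and the difference of 0.59 ± 0.23 did not pass in either contrast (limma adjusted p = 0.118 and 0.111). Of the other Ccr1 regions, one 9.4 kb from the start, beyond the end of the gene, is closed by -1.08 in the authors' deposited LSD1i table. It was 23.3% and 12.1% in Vehicle and 13.8% and 10.9% in LSD1i, a difference of -0.45 ± 0.34 that did not pass (limma adjusted p = 0.476). Another, 39.5 kb from the start, is closed there by -0.34 and differed by -0.19 ± 0.16 (limma adjusted p = 0.538). In the Ccr3 stretch, a region 31.3 kb from the start was 94.7% and 84.3% in Vehicle and 139% and 152% in Combo, a rise of 0.70 ± 0.15 (limma adjusted p = 0.0019) that was lost without Combo replicate 2. A region 5.2 kb before Ccr3 was 54.3% and 49.6% in LSD1i and 45.0% and 59.1% in Combo. It had peaks of 11.6% and 15% in 1 Day0 and 1 Vehicle library and none in the other 6, and the authors' deposited tables give folds of 1.71 and 2.08. The Ccr2 row, annotated to a 3′ UTR, was 75.2% and 101% in Vehicle against 109% and 126% in LSD1i, which did not pass (0.42 ± 0.18, limma adjusted p = 0.17). The Cx3cr1 row, opened in the authors' deposited Combo table by 1.04, had too few called peaks to be tested.

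Cxcr4, the receptor that holds progenitors in the marrow through CXCL12, had 4 listed regions that went different ways. A region 15.4 kb upstream (chromosome 1, 128607609 to 128608464) had a called peak at 37.1% and 30.7% in LSD1i and at 21.2% and 23.2% in Combo. None of the 8 other libraries had one, and the authors' deposited tables give folds of 2.20 and 2.16. A second region, 21 kb from the start, was lowest in Vehicle. It stood at 81.2% and 77.1% there, 123.3% and 124.7% in Day0, 116% and 94.9% in LSD1i, 93.2% and 132% in 6MP, 141% and 118% in CER and 141% and 147% in Combo. It rose in Combo by 0.86 ± 0.16 (limma adjusted p = 0.000584) and in CER by 0.71 ± 0.16 (0.0446). The Cxcr4 promoter, at 241% to 310% in all 12 libraries, differed by -0.15 ± 0.14 in LSD1i and did not pass (limma adjusted p = 0.6).

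Ccr7, which directs dendritic cells and lymphocytes to lymph nodes, had a region 27.2 kb upstream at 21.1% and 17.9% in Vehicle and 37.1% and 47.4% in LSD1i. It rose by 1.11 ± 0.28 (limma adjusted p = 0.0139), a call lost without Vehicle replicate 2 or either LSD1i library. Ccr10, a receptor for skin and mucosal chemokines, rose at its promoter region from 159% and 178% in Vehicle to 261% and 214% in LSD1i, by 0.49 ± 0.15 (limma adjusted p = 0.0468). Leaving out Vehicle replicate 1 or either LSD1i library ended that call. At Ackr3, a scavenging receptor for CXCL12, the promoter region was 69.2% and 71.4% in Vehicle and 127% and 97.8% in LSD1i, just short of the threshold (0.66 ± 0.21, limma adjusted p = 0.0557). Ccr4, a receptor of type 2 helper T cells, rose in Combo by 0.67 ± 0.15 (limma adjusted p = 0.00328) at a region 1.6 kb into the gene, a call lost without Combo replicate 1. Another Ccr4 region is closed by -0.35 in the authors' deposited LSD1i table. The promoter of Cxcr5, the receptor that guides B cells to follicles, fell in Combo. It was 64.7% and 76.4% in Vehicle, 49.1% and 61.3% in LSD1i and 30.6% and 34.8% in Combo, a difference of -1.11 ± 0.22 (limma adjusted p = 0.00117). Of its 7 listed regions, 5 were closed in LSD1i or Combo in the authors' deposited tables and 2 opened.

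**Figure D4:**
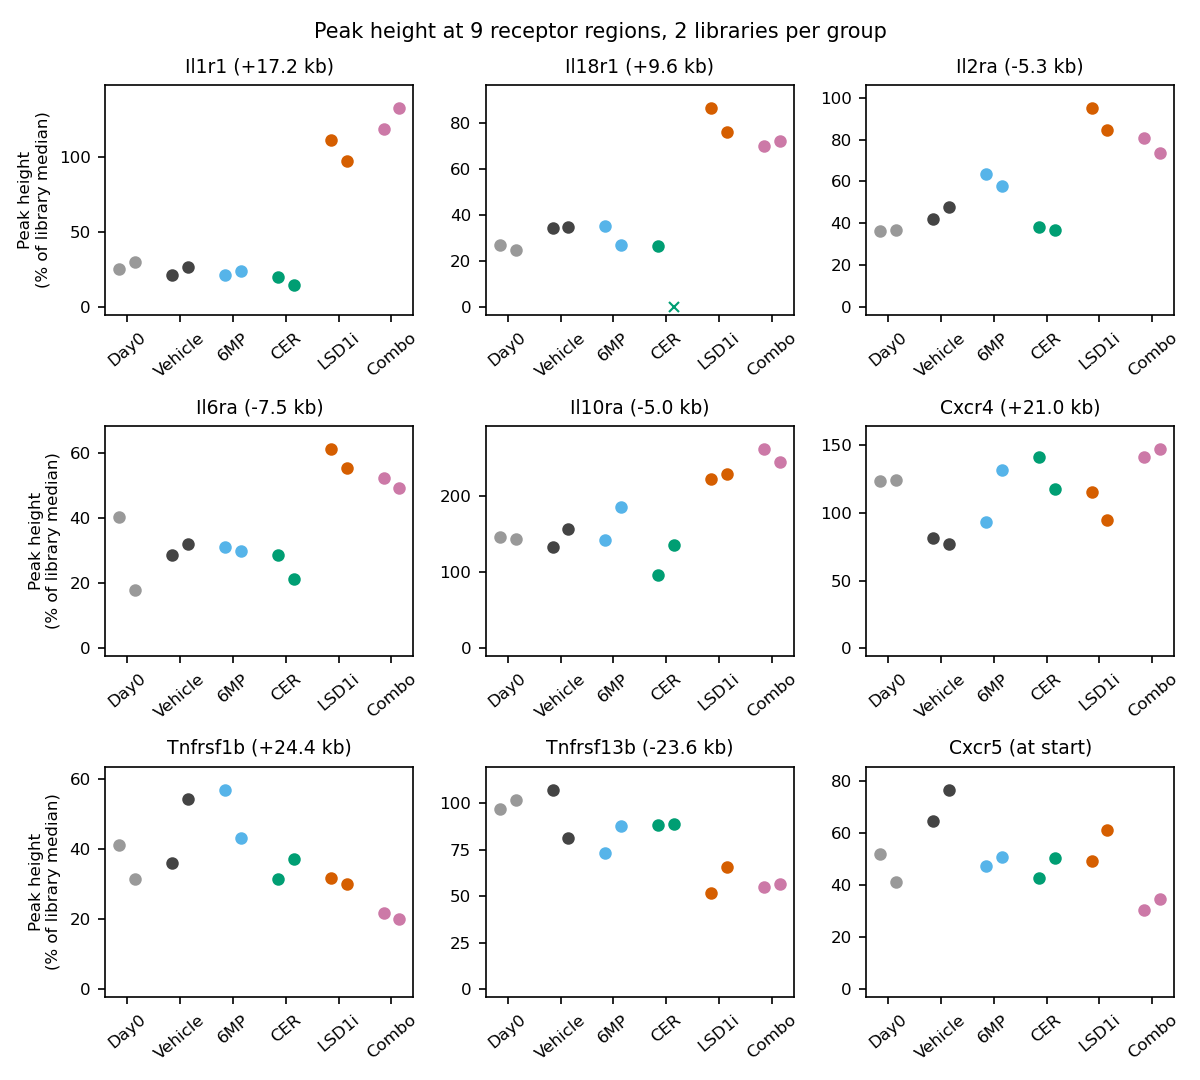
Peak height as a percent of the library median (vertical axis, linear) in the 2 libraries of each group (horizontal axis) at 9 receptor regions, named by gene and distance to the nearest annotated start; a cross at 0 is a library with no called peak. The LSD1i and Combo points stand above all others at Il1r1, Il18r1, Il2ra, Il6ra and Il10ra, whereas at Cxcr4 the Vehicle points, 81.2% and 77.1%, are the lowest.

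The TNF receptor superfamily includes the receptors for TNF itself and costimulatory receptors of lymphocytes. Tnfrsf11a encodes RANK, which drives osteoclast formation. Its intronic region was 19.5% and 19.3% in Vehicle, 42.2% and 40.1% in LSD1i and 39.4% and 40.2% in Combo, and no other library had a peak there. It rose by 1.08 ± 0.26 in LSD1i (limma adjusted p = 0.00933) and by 1.04 ± 0.26 in Combo (0.0105), each call being lost without either library of its drug group. Tnfrsf8, which encodes CD30, rose 2.0 kb inside the gene by 1.10 ± 0.31 in LSD1i (limma adjusted p = 0.0295) and by 1.04 ± 0.31 in Combo (0.0328). Each call was lost without Vehicle replicate 1 or either library of its drug group. The 6MP libraries were also high there, at 32.4% and 25.0% against 11.3% and 18.6% in Vehicle. Another Tnfrsf8 region, 19.3 kb into the gene, is closed by -0.63 in the authors' deposited LSD1i table. Tnfrsf21, or death receptor 6, had an intronic peak in all 4 libraries with the inhibitor, at 26.3% to 35.3%, and in 1 of the other 8, at 13.5%.

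Closing was called at Tnfrsf13b and Tnfrsf1b. A region 23.6 kb before Tnfrsf13b, the B cell receptor TACI, was 107% and 81.4% in Vehicle, 51.7% and 65.7% in LSD1i and 55% and 56.7% in Combo. All 8 libraries without the inhibitor were at 73.0% or more. The region fell by -0.68 ± 0.18 in LSD1i (limma adjusted p = 0.02) and by -0.74 ± 0.18 in Combo (0.00772). Leaving out Vehicle replicate 1 or LSD1i replicate 1 ended the first call, and leaving out Vehicle replicate 1 or either Combo library the second. Tnfrsf1b encodes TNF receptor 2 and had 6 listed regions, all closed in LSD1i in the authors' deposited table. One in an intron was 36.1% and 54.3% in Vehicle, 31.9% and 29.9% in LSD1i and 21.9% and 20.1% in Combo, a fall of -1.08 ± 0.26 in Combo (limma adjusted p = 0.00755) that was lost without Vehicle replicate 2 or Combo replicate 2. Another, annotated to a 3′ UTR, was 208% and 219% in Vehicle, 138% and 158% in LSD1i and 196% and 189% in Combo. It fell by -0.53 ± 0.15 in LSD1i (limma adjusted p = 0.0293), with no such call in Combo (-0.15 ± 0.15, 0.628), and the LSD1i call was lost when any 1 of its 4 libraries was left out. The row with the largest fold at Tnfrsf1a, the gene of TNF receptor 1, was closed by -0.65 in the authors' deposited LSD1i table and differed by -0.42 ± 0.21 in limma (adjusted p = 0.258).

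Promoter regions of Ifngr1, Ifnar1, Ifngr2 and Tgfbr1 had tall peaks in every library. Ifngr1, a chain of the interferon-gamma receptor, was 567% and 576% in Vehicle and 553% and 504% in LSD1i (-0.11 ± 0.20, limma adjusted p = 0.776). Ifnar1, a chain of the type I interferon receptor, was 382% and 379% in Vehicle and 350% and 346% in LSD1i (-0.13 ± 0.17, limma adjusted p = 0.702). The Ifngr2 promoter and a region 5.0 kb before Ifnar2, the genes of the partner chains, differed by -0.16 ± 0.17 and 0.02 ± 0.17 (limma adjusted p = 0.636 and 0.955). Tgfbr1 was 497% and 496% in Vehicle and 478% and 417% in LSD1i (-0.15 ± 0.21, limma adjusted p = 0.715). These regions are closed in the authors' deposited LSD1i table by -0.22 to -0.46, on a scale where most listed regions are closed. An intronic region of Tgfbr2, the partner of Tgfbr1, was 139% and 179% in Vehicle, 208% and 232% in LSD1i and 196% and 174% in Combo. The LSD1i difference of 0.48 ± 0.16 did not pass (limma adjusted p = 0.0759). Another intronic Tgfbr2 region is closed by -0.33 in the authors' deposited LSD1i table. At Tgfbr3, a co-receptor for TGF-beta, the authors' deposited LSD1i table opens a region 32.4 kb from the start by 1.56 and closes an intronic one by -0.71. Too few libraries had peaks there for a test.

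Some regions had a peak only with the inhibitor. Of the 30 receptor regions opened in the authors' deposited LSD1i table, 27 were called in all 4 libraries with the inhibitor and 3 of these in none of the other 8. They are the Cxcr4 region above, one 1.2 kb into Ccr6, the receptor for CCL20, and one at a 5′ UTR of Il31ra, a chain of the interleukin-31 receptor. The last 2 fall outside the naming rule and were named after their values were seen. The same pattern was found at 10% of the receptor regions and at 15.65% of all 3508 regions opened in that table. A region without a called peak has no entry in that library's peak list, where every summit held at least 10 fragments. This does not mean closed chromatin, since the Il3ra promoter above had reads in Vehicle without a called peak. Why a peak was missing was not tested. At the 64 closed regions each library had a peak at 58 to 64.

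The members of each table were chosen on its own libraries, so contrasts in other libraries were used to test them. Combo minus the mean of 6MP and CER shares no library with the LSD1i table. It differs by the inhibitor and also by giving both metabolic drugs at once. Over all regions, 5.26% were opened and 5.62% closed in this contrast. Of the 30 receptor regions opened in the authors' deposited LSD1i table, 10 had peaks in all 6 of these libraries and could be tested. All 10 had a positive difference, with a median of 0.59, and 6 were called opened and 0 closed. Of all 1371 testable regions opened in that table, 98.5% had a positive difference, with a median of 0.73, and 67.3% were called opened. The called regions were at Il1r1, Il2ra, Il6ra, Il10ra, Ackr3 and Tgfbr2, and Il1r1 led with 2.66 ± 0.21 (limma adjusted p = 2.82e-10). Next came Il10ra at 0.89 ± 0.14 (3.26e-05) and Il6ra at 0.89 ± 0.25 (0.018). Of 57 testable regions closed in the LSD1i table, 48 had a negative difference, with a median of -0.18, and 6 were called closed. Of all such regions 90.5% had a negative difference, with a median of -0.20, and 10.9% were called closed. The 6 receptor regions called closed were at Il12rb1 (-0.68 ± 0.13, limma adjusted p = 0.000872), Tnfrsf13b, Tnfrsf1b, Tnfrsf8, Il17ra and Il2rb. The Tnfrsf8 region is the one 19.3 kb into the gene. The Il1r1 and Il10ra calls held under every alternative. The other 4 opened and all 6 closed calls were each lost when 1 Combo library was left out. The receptor calls of the contrast were 20 in all, 36 without 6MP replicate 1 and 5 or 6 when the first or the second Combo library was left out. The calls over all regions moved in the same order, from 10.9% to 27.3% and to 2.86% or 3.79%. With depth scaling the receptor calls were 18 opened and 0 closed in place of 14 and 6. That scaling moved the median of all regions to 0.49, and the cause of the changed calls was not tested.

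LSD1i minus the mean of Day0, 6MP and CER shares no library with the Combo table. Over all regions 8.92% were opened and 12.4% closed in it. Of 46 receptor regions opened in the authors' deposited Combo table, 22 were testable, 19 had a positive difference and 12 were called opened, beside 81.7% and 45.0% of all testable regions opened in that table. Besides the Il1r1 intron (2.23 ± 0.20, limma adjusted p = 1.6e-09), the calls included Il2ra (1.03 ± 0.16, 2.96e-05), Tgfbr2 (0.84 ± 0.13, 3.22e-05), Il6ra (1.10 ± 0.23, 0.00107), Ccr6 (0.57 ± 0.13, 0.00179), Ccr2 (0.57 ± 0.15, 0.00594) and the Ccr1 promoter (0.68 ± 0.18, 0.00759). Of the 5 testable regions closed in the Combo table, 2 were called closed, beside 31.7% of all such regions, at Tnfrsf13b (-0.61 ± 0.15, limma adjusted p = 0.00345) and 1.6 kb before Cxcr5 (-0.66 ± 0.23, 0.0358). The calls at the Il1r1 intron, Il2ra and Il6ra held under every alternative, and that at Tgfbr2 was lost with depth scaling alone. Without LSD1i replicate 1 those at Ccr6, the Ccr1 promoter, Tnfrsf13b and Cxcr5 were lost, and without LSD1i replicate 2 those at Ccr2, the Ccr1 promoter and Cxcr5. The Cxcr5 call was also lost without Day0 replicate 2 or CER replicate 1. The receptor calls of the contrast were 29 in all, 12 without LSD1i replicate 1, 14 without LSD1i replicate 2 and 5 with depth scaling. Over all regions 21.3% were called, and 8.84%, 5.87% and 2.17% in these fits.

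Few receptor regions were called for the single metabolic drugs and for Vehicle minus Day0, and few regions of any kind. None of 86 tested receptor regions was called by limma in 6MP minus Vehicle, where 9 had an unadjusted p of 0.05 or less and the background was 0.00% opened and 0.00% closed. In CER minus Vehicle 1 of 87 was called opened, the Cxcr4 region at 21 kb, over a background of 0.154% opened and 0.174% closed, and this call was lost without either CER library and without Vehicle replicate 2. Without Vehicle replicate 1 the count became 7, 4 opened and 3 closed, beside 3.22% of all regions. In Vehicle minus Day0 limma called 0 of 90, with 17 at an unadjusted p of 0.05 or less, over 0.0710% opened and 0.0101% closed. Without Vehicle replicate 1 that count was 5, beside 3.09% of all regions. Combo minus LSD1i asks what the metabolic drugs add to the inhibitor. It gave 0 calls by limma among 107 tested receptor regions, with 17 at an unadjusted p of 0.05 or less, over a background of 0.0893% opened and 0.0229% closed. The largest differences among the regions named were 0.81 ± 0.24 at Ccr1, 2.6 kb into the gene (limma adjusted p = 0.167), and -0.75 ± 0.22 at the Cxcr5 promoter (0.159). With only the 4 libraries of that contrast in the fit, 8 regions were called, beside 5.24% of all regions, so a difference between Combo and LSD1i at single receptor regions was not settled with these libraries.

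The 4 libraries with the inhibitor were also set against the 8 without at the 82 receptor regions called in all 12. At 14 of them all 4 stood above all 8, and at 8 all 4 stood below, beside 5.12% and 5.72% of all 33368 regions. Most of these libraries were used for the listing, so the counts are a description and no test is given for them. Among these regions were Il1r1, Il2ra, Il6ra, Il10ra, Ccr10, Ccr6 and Ccr1 above, and Tnfrsf13b, Il17ra, Il4ra and Il12rb1 below.

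Of the 94 receptor genes, 34 had no row in any of the 4 tables. Of these, 17 had a region called in all 12 libraries in the gene or within 2 kb, among them Csf2ra, the GM-CSF alpha chain, Il1r2, the decoy receptor for interleukin-1, and Cxcr3. For 11 of the 34, Ccr8 and Cxcr6 among them, no region was called there in any library. Absence from a table says that the authors' test was not passed or not made.

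Genes around the receptors were counted from lists of their signalling parts and ligands. Of 30 JAK-STAT genes, which relay type I and II cytokine receptors, the authors' deposited LSD1i table lists 24, 4 with an opened and 20 with a closed row of largest fold (the leading row), and 9 in the Combo table, with 7 opened and 2 closed. Over all genes in these tables, the leading row was closed for 81.5% in LSD1i and opened for 83.4% in Combo. Limma called 2 of 49 listed JAK-STAT regions opened and 4 closed in LSD1i, and 4 of 12 opened and 1 closed in Combo. Of all listed regions tested, it called 7.29% opened and 4.61% closed in LSD1i, and 42.2% and 10.97% in Combo. These regions were listed on the same libraries, so the limma calls of this and the next paragraph are a second reading of those libraries, and are no independent support. Pias1, an inhibitor of STAT factors, rose at an intronic region by 1.43 ± 0.29 in LSD1i (limma adjusted p = 0.00265) and by 1.75 ± 0.29 in Combo (0.00022). Pias4, of the same family, fell at a region annotated to a 3′ UTR, by -0.93 ± 0.16 in LSD1i (limma adjusted p = 0.000446) and by -0.74 ± 0.16 in Combo (0.00334). Stat5b, a STAT factor of interleukin-3 and GM-CSF signalling, fell at an intronic region by -0.99 ± 0.18 in LSD1i (limma adjusted p = 0.000772), and so did Cish, a feedback inhibitor of the same pathway, at its promoter (-0.63 ± 0.17, 0.0196). Of 34 TNF receptor and NF-kB genes, 29 had rows in the authors' deposited LSD1i table, 26 of them closed, and limma called 0 of 46 regions opened and 1 closed. Of the same genes, 7 had rows in the authors' deposited Combo table. Of 14 TGF-beta signalling genes 11 had rows in the authors' deposited LSD1i table, 9 of them closed, with 0 opened and 1 closed by limma of 25 regions tested. The 20 genes of chemokine receptor signalling included 15 with rows in the authors' deposited LSD1i table, each with a closed leading row, with 1 region called opened and 1 closed of 29.

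The ligand genes were read in the same tables. Of 114 genes of chemokines, interleukins, interferons and TNF family ligands, 28 had rows in the authors' deposited Combo table, 27 of them with an opened leading row, beside the 83.4% of all genes there. The median log2 fold over their rows was 0.93. Limma called 15 of 26 tested regions opened and 0 closed in Combo, beside 42.2% and 10.97% of all listed regions tested, and 8 of 45 opened and 2 closed in LSD1i, beside 7.29% and 4.61%. A region near Ccl8, a ligand of CCR receptors, rose by 0.96 ± 0.17 in LSD1i (limma adjusted p = 0.000694) and by 1.41 ± 0.17 in Combo (1.87e-06). A distal region annotated to Il3, the interleukin-3 gene, rose by 1.43 ± 0.20 in LSD1i (limma adjusted p = 1.7e-05) and by 1.19 ± 0.20 in Combo (0.000133). The promoter of Csf2, the GM-CSF gene, fell by -0.61 ± 0.16 in LSD1i (limma adjusted p = 0.02). These lists were chosen with earlier results of these data known, and the named genes of this and the preceding paragraph were taken after their values were seen.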

How the data were processed

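ATAC-seq peaks of 12 libraries were analysed as peak lists and comparison tables. MACS2 2.1.2, DiffBind, Bowtie2 and Trimmomatic 0.38 are named in the submitters' processing notes, beside Picard 2.18.26, SAMtools 1.9 and the build mm10; settings are not given in the sources used here. The deposited peak lists give each summit a score, its fold ratio to the background, and -log10 p-values and q-values. The deposited comparison tables hold log2 levels and log2 folds of normalised reads, with p-values and FDR, and the scaling is not given in the sources used here. The table of 6MP against Vehicle was not used. Of the genes that match the symbol rule, 1 was left out and the values of 1 other, which enters the counts, are not reported here. The authors annotated each region to the nearest transcript start.

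Whole fragment pileups were recovered from the fold ratio and p-value of each summit at 100% of summits (tolerance 0.001 on the -log10 scale). Log2 of pileup over depth, the highest summit per joined region, was centred per library on the median of the regions that all 12 libraries share, with no pseudocount; a library without a peak is missing. Read totals are not in the files, so the smallest background stands for depth, and precision is limited by 2 libraries per group (2 against 2 cannot go below an exact p of 0.333). Group means of all 12 libraries were fitted with limma 3.58.1 (R 4.3.3), trend in the prior, checked on simulated data. Alternatives were other scalings, a prior without a trend, fewer libraries or regions and a replicate block; the motif search in listed regions was limited to RefSeq promoter windows because no genome was used here. Genes were named by largest fold per family and table, lowest adjusted p, rows of the small tables, and 25 preset genes. The members, lists and rules were chosen with earlier results of these data known. A closed region has a negative and an opened region a positive fold.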

Additional observations from a re-analysis of the deposited data

How the results depend on the processing

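Counts of called receptor regions moved with several settings. In LSD1i minus Vehicle the count was 13, and it was 1 with depth scaling, 7 with a prior without a trend, 8 with regions called in all 12 libraries, 14 with the replicate block and 1 to 16 with 1 library left out. In Combo minus Vehicle it was 19, and 6 with depth scaling, 19 with the replicate block and 7 to 17 with 1 library left out. In Combo minus the mean of 6MP and CER it was 20, and 13 without a trend, 19 with the block and 5 to 36 with 1 library left out. In LSD1i minus the mean of Day0, 6MP and CER it was 29, and 5 with depth scaling, 29 with the block and 12 to 42 with 1 library left out. In CER minus Vehicle it was 1, and 2 with centring by intensity, 0 with depth scaling, with the libraries of the contrast only and without a trend, 1 with the block and 0 to 7 with 1 library left out. Vehicle minus Day0 gave 0 to 5 with 1 library left out, and Combo minus LSD1i gave 8 with the libraries of the contrast only, both being 0 otherwise, the block included. 6MP minus Vehicle gave 0 under every alternative run. The shares of all regions called moved too. With depth scaling they went from 6.05% to 0.484% in LSD1i minus Vehicle and from 8.07% to 2.89% in Combo minus Vehicle. In LSD1i minus the mean of Day0, 6MP and CER they went from 21.3% to 2.17%. Without a trend they went to 3.96% in LSD1i minus Vehicle, and from 10.9% to 7.24% in Combo minus the mean of 6MP and CER. Of the 94 receptor rows listed for LSD1i, 60 stayed at an FDR of 0.01, 52 with 1 row per gene and 13 when the log2 fold had to reach 1 in size, and of the 52 for Combo 32, 33 and 21. Depth scaling reversed Combo minus the mean of 6MP and CER at Tnfrsf13b (0.0075), Tnfrsf8 19.3 kb into the gene (0.16) and the Il17ra promoter (0.16), a scaling that moved the median of all regions in this contrast from -0.11 to 0.49. For the counts that moved, the cause was not tested. The block changed 1 named call, Il2rb in Combo minus the mean of 6MP and CER. The replicate numbers did not pair the libraries (correlation of deviations -0.344 to 0.246, median -0.034, above 0.1 in 3 of 15 pairs of groups). Why the block changed the Il2rb call was not tested. Leaving out a library leaves its group with 1, whose spread is taken from the other groups. With 2 libraries per group and no read totals, low regions could not be compared where a library lacked a peak.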
